A study of Homo sapiens with 3 samples.

Results

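The genes described here encode 6 human topoisomerases (TOP1, TOP1MT, TOP2A, TOP2B, TOP3A and TOP3B) and 4 factors that free DNA from a topoisomerase trapped on it (TDP1, TDP2, SPRTN and ZNF451). They were chosen by gene symbol, and all 10 were found among the 27574 genes of the count table. The data are RNA sequencing read counts from 3 libraries of H82R cells, named here replicates 1, 2 and 3. H82, an ATCC line of human small cell lung cancer, was grown in RPMI1640 medium with fetal bovine serum and antibiotics. Every library is labelled as treated with etoposide and cisplatin, with no dose or duration, and the labels call the treated material a tumor although the source and the growth conditions are those of cultured cells. Since all 3 libraries form 1 group with no untreated or parental H82 cells, the values give the level of each gene and its spread, and no effect of treatment. Separate cultures are not mentioned, so p-values cover only the spread among these 3 samples, which may be technical.

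The libraries held 23868201 to 42610181 counts, with replicate 2 the deepest. Levels are given as CPM (each gene's counts relative to the library total after edgeR's TMM scaling) and, wherever genes are compared, as CPM per kb of exon. Detected means 10 counts or more in each library, which held for 14612 genes. All 10 genes were detected, with 492 counts or more in every library. All 8 neuroendocrine markers of small cell lung cancer were detected, with a summed level of 1333 to 1345 CPM. Of 13 markers of leukocytes, endothelium, fibroblasts and lung epithelium 4 were detected, with a summed level of 11.3 to 18.1 CPM, and the pan-leukocyte gene PTPRC had 6, 10 and 7 counts.

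Topoisomerases relieve the twisting and tangling of DNA by cutting it, passing strands and sealing the cut, and during the cut a tyrosine of the enzyme is bound covalently to the DNA end. Type I enzymes cut a single strand and type II enzymes cut both. Etoposide holds type II enzymes in the bound state, and a trapped enzyme is cleared by tyrosyl-DNA phosphodiesterases, proteases and SUMO-directed factors or by nucleases. TOP2A is the isoform of dividing cells and TOP2B is also present in cells that have left the cycle, neurons included.

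The level per kb of exon fell over a wide range, from TOP2A, which exceeded the median detected gene 28.6-fold, to SPRTN, at 0.631 times the median gene. With limma, each level was tested against the median detected gene of its own library. Over 13539 detected genes of known exon length, 7 of the 10 genes lay above it and 1 (SPRTN) below, while TOP3B and TDP1 were not distinguished from it. Among all genes tested, 45.3% lay above and 45.1% below the median gene, so that a call in itself is common. The median distance of the 10 genes was 1.10 on the log2 scale, against 0 by construction for all genes. The topoisomerases occupied most of the upper range and the removal factors, except TDP2, the lower.

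**Figure D1:**
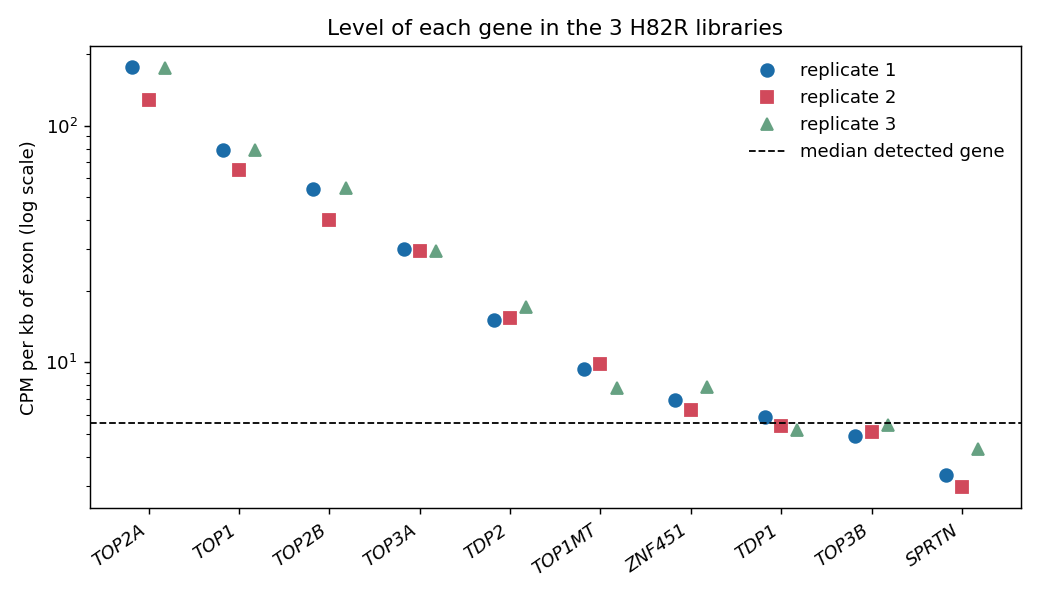
CPM per kb of exon (log axis) of each of the 10 genes in replicates 1, 2 and 3, ordered by mean level, with the median detected gene as a dashed line. TOP2A, TOP1, TOP2B and TOP3A stood at 29.6 or more in every library, TDP1 and TOP3B lay at the line, and SPRTN lay below it.

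TOP2A, the main target of etoposide in dividing cells, was the highest of the 10 genes in every library. Its level was 1139, 828 and 1127 CPM in replicates 1, 2 and 3, and 177, 129 and 175 CPM per kb. Replicates 1 and 3 were nearly the same and replicate 2 was lower. The mean of 160.2 ± 27.3 CPM per kb (SD, n = 3) was higher than that of 99.1% of the tested genes. The log2 distance from the median gene was 4.84 ± 0.10 (SE; limma, adjusted p = 2.5e-09). TOP2B, the second type II enzyme, stood at 326, 240.5 and 329 CPM, or 53.9, 39.8 and 54.5 CPM per kb. It too was lower in replicate 2 than in the other libraries. Its mean of 49.4 ± 8.33 CPM per kb (SD, n = 3) exceeded that of 95.3% of tested genes, with a log2 distance of 3.14 ± 0.10 (SE; limma, adjusted p = 1.6e-08).

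Per kb of exon, the ratio of TOP2A to TOP2B was 3.28 in replicate 1, 3.23 in replicate 2 and 3.21 in replicate 3. In counts, TOP2A held 77.7%, 77.5% and 77.4% of the reads of both type II genes, with exact (Clopper-Pearson) 95% binomial intervals of 77.3 to 78.2%, 77.1 to 77.9% and 76.9 to 77.8%. These intervals overlap, although replicate 2 held only 0.731 times the TOP2A level and 0.734 times the TOP2B level of the others. They cover counting error only, since PCR copies among the reads could not be told from separate molecules. Of the 45 pairs that the 10 genes form, TOP2A and TOP2B had the narrowest spread of the log2 ratio over the libraries (SD 0.015), followed by TOP3B and TDP2 (SD 0.027). Counting alone gives a coefficient of variation of 3.22% for TOP3B and 2.69% for TDP2. The spread of the TOP3B and TDP2 pair is thus smaller than counting error, and its place is not a sign of likeness. Among 10588 genes with a mean of at least 200 counts, TOP2B ranked 14 by this measure of likeness to TOP2A over 3 libraries. EIF5A2, a translation factor gene, had the smallest SD (0.0033), and GTF2H2C, which has near-identical copies and whose count is therefore uncertain, had the next (0.0048). Their mean levels were 14.1 and 30.0 CPM, and for SPRTN, at 20.9 CPM, counting alone gives a coefficient of variation of 4.16%. Both SDs are thus smaller than counting error, so that these ranks over 3 libraries do not measure likeness.

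The sequences of both genes bear on how far their counts can be told apart. On GRCh38 (GENCODE release 29), TOP2A lies on the minus strand at chr17:40388516-40417950 and TOP2B on the minus strand at chr3:25597905-25664907. The longest run of bases common to any transcript of each was 22 bases, coding in both, at chr17:40406394-40406415 and chr3:25627197-25627218, printed here in capitals because every base is shared.
TOP2A and TOP2B, shared run: CTGGTCCTGAAGATGATGCTGC
No stretch of 50 bases of either gene's transcripts occurred in a transcript of another gene, on either strand, although 32 exon bases of TOP2B also belong to the microRNA gene MIR4442. The read length is not given in the sources used here.

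The sequences upstream of the starts of both type II genes are shown as well (RefSeq, GRCh38.p14), as a description only. They run 5′ to 3′ on the strand of the gene and only as far as the annotated transcripts begin. Capitals mark matches on either strand to CCAAT, the CCAAT box, and to TTTGAA, the letters of a cell cycle homology region. No matches of one overlapped the other. The stretch for TOP2A is chr17:40417951-40418146 and the stretch for TOP2B chr3:25664908-25665157, both on the minus strand.
TOP2A, upstream: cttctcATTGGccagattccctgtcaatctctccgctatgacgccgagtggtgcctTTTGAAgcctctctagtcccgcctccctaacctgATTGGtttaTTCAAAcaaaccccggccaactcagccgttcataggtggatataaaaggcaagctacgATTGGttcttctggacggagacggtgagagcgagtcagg
TOP2B, upstream: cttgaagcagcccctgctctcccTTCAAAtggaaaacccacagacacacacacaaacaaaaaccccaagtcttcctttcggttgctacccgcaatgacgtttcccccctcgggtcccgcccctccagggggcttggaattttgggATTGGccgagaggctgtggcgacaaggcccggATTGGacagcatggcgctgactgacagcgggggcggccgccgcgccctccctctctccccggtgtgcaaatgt
In the 250 bases before the RefSeq start, TOP2A held 4 CCAAT matches, their first bases 244, 160, 93 and 53 bases before it, the last of them beyond the printed stretch, and 2 TTTGAA matches. TOP2B held 2 CCAAT matches and 1 TTTGAA match at the start shown and none of either before its other RefSeq start, at chr3:25664373-25664622. Of 35116 windows of this length, 32.0% held a CCAAT match, 9.53% held 2 or more and 0.874% held 4 or more, while 13.3% held a TTTGAA match and 1.72% held 2 or more. Windows were found for 9 of the 10 genes, all but TOP1MT. CCAAT was not matched upstream of TOP1, TOP3A, TOP3B, TDP1, TDP2, SPRTN or ZNF451, and TTTGAA was matched once each for TDP1, SPRTN and ZNF451. A match is a description of these letters, binding was not measured, and a part of these sequences in the levels was not tested.

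TOP1, the nuclear type IB enzyme that relaxes supercoils ahead of polymerases and is the target of the camptothecins, stood at 295, 244 and 294 CPM, or 78.9, 65.2 and 78.7 CPM per kb. Replicates 1 and 3 were again alike and replicate 2 was lower. The mean of 74.3 ± 7.84 CPM per kb (SD, n = 3) exceeded that of 97.4% of tested genes, and the log2 distance from the median gene was 3.74 ± 0.08 (SE; limma, adjusted p = 2.2e-09). TOP1 lies at chr20:41028818-41124487 on the plus strand and has a single annotated transcript. Of its 50-base windows 4.99% also occur in AL031274.1, a processed pseudogene on chromosome 1, whose reads could not be separated there. The antisense gene PLCG1-AS1 covers 2.41% of the exon bases of TOP1 on the opposite strand.

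TOP1MT, which carries out the same reaction on mitochondrial DNA, was far below TOP1. It stood at 60.2, 63.6 and 49.99 CPM, or 9.34, 9.87 and 7.76 CPM per kb, and was lowest in replicate 3. Its log2 distance from the median gene was 0.69 ± 0.09 (SE; limma, adjusted p = 1.1e-04). TOP1 exceeded TOP1MT by 8.44, 6.61 and 10.1 times per kb of exon. This ratio depends on the transcript length taken for TOP1MT: its merged exons, over 19 annotated transcripts, span 6441 bases and its longest coding transcript 1982. With the latter the mean log2 ratio was 1.35 in place of 3.05, and the log2 distance of TOP1MT from the median gene 1.84. TOP1MT lies at chr8:143304384-143359979 on the minus strand.

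TOP3A and TOP3B are type IA enzymes that pass single strands: TOP3A acts with the BLM helicase to dissolve joined DNA molecules, and TOP3B acts on RNA as well as DNA. TOP3A stood at 196, 192 and 191 CPM, or 30.2, 29.6 and 29.6 CPM per kb. The libraries were nearly equal, and the SD of log2 CPM (0.018) was smaller than that of all but 1.06% of the detected genes. Its log2 distance from the median gene was 2.42 ± 0.06 (SE; limma, adjusted p = 7.7e-09). TOP3B stood at 32.3, 33.7 and 36.0 CPM, or 4.86, 5.07 and 5.42 CPM per kb. It did not differ detectably from the median gene (log2 distance -0.12 ± 0.08 SE; limma, adjusted p = 0.216). TOP3A was 6.22, 5.83 and 5.45 times TOP3B per kb of exon. TOP3A lies at chr17:18271428-18315007 and TOP3B at chr22:21957025-21982816, both on the minus strand.

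The count of TOP3B is uncertain. The antisense gene AC245452.1 covers 90.7% of its exon bases on the opposite strand, and whether counting used strand is not given in the sources used here. Of its 50-base windows 13.2% also occur in its processed pseudogene TOP3BP1. With genes of at least 1 CPM in every library as the reference, TOP3B lay below the median gene (log2 distance -0.32; limma, adjusted p = 0.00649), and without a length correction above it (0.44, adjusted p = 0.00118), with adjusted p from 4.4e-06 to 0.895 over the alternatives tried, other than those without a library.

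Per kb of exon the 6 topoisomerases summed to 354, 278 and 351 CPM per kb in replicates 1, 2 and 3. TOP2A made up 48.7% ± 2.11 of that sum (SD, n = 3), TOP1 22.7% ± 0.636, TOP2B 15.0% ± 0.638, TOP3A 9.20% ± 1.24, TOP1MT 2.80% ± 0.683 and TOP3B 1.58% ± 0.227. The sum was lowest in replicate 2, where the share of TOP2A was 46.3% against 49.9% in each of the other libraries and that of TOP3A 10.6% against 8.53% and 8.42%. With the longest coding transcript as the length, an alternative chosen after seeing the data, the share of TOP1MT was 7.56% ± 1.71, and those of the other genes moved by less than 1.5 times, TOP2A to 45.4% ± 2.69.

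Among the removal factors TDP2 was the highest per kb of exon. TDP2 cleaves the bond between DNA and the tyrosine of a type II enzyme, and TDP1 the bond left by TOP1. TDP2 stood at 46.4, 47.5 and 52.7 CPM, or 15.1, 15.4 and 17.1 CPM per kb, highest in replicate 3. Its log2 distance from the median gene was 1.51 ± 0.08 (SE; limma, adjusted p = 2.9e-07). TDP1 stood at 36.6, 33.4 and 32.1 CPM, or 5.88, 5.36 and 5.16 CPM per kb, highest in replicate 1. It was not distinguished from the median gene (log2 distance -0.02 ± 0.09 SE; limma, adjusted p = 0.814). Per kb of exon TDP1 was 0.390, 0.348 and 0.302 times TDP2, a larger gap than in counts because the merged exons of TDP1 (6227 bases) are longer than those of TDP2 (3082 bases). TDP1 was above the median gene without a length correction (log2 distance 0.44; limma, adjusted p = 0.00117) and below it with the filter of at least 1 CPM (-0.23, adjusted p = 0.0352), with 1.6e-06 to 0.824 over the alternatives other than those without a library. TDP1 lies at chr14:89954939-90044768 on the plus strand and TDP2 at chr6:24649977-24667033 on the minus strand.

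SPRTN, a DNA-dependent protease that digests proteins crosslinked to DNA during replication, was the lowest of the 10 genes. It stood at 19.8, 17.5 and 25.3 CPM, or 3.35, 2.96 and 4.29 CPM per kb. Replicate 3 was the highest and replicate 2 the lowest. Its log2 distance from the median gene was -0.66 ± 0.12 (SE; limma, adjusted p = 7.6e-04), and on CPM without a length correction the call was lost (-0.28, adjusted p = 0.0547; 1.6e-04 to 0.0601 over the alternatives other than those without a library). Of its exon bases, 12.7% are also exons of EXOC8 on the opposite strand, a gene that had 324, 632 and 397 counts. SPRTN lies at chr1:231337104-231355023 on the plus strand.

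ZNF451 (also known as ZATT), a SUMO ligase that acts with TDP2 on trapped type II enzymes, stood at 114, 103 and 129 CPM. Its merged exons span 16416 bases, the longest of the 10 genes, so that it stood at 6.93, 6.27 and 7.89 CPM per kb. Replicate 2 was the lowest and replicate 3 the highest. Its log2 distance from the median gene was 0.34 ± 0.08 (SE; limma, adjusted p = 0.00369), a call that was lost with the filter of at least 1 CPM (0.13, adjusted p = 0.147; 5.2e-08 to 0.147 over the alternatives other than those without a library). TDP2 was 2.17, 2.46 and 2.17 times ZNF451 per kb of exon, but in counts 0.408, 0.461 and 0.407 times. ZNF451 lies at chr6:57086844-57170307 on the plus strand, and 6.29% of its exon bases are also exons of its antisense gene ZNF451-AS1.

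Ordered by level per kb of exon, the genes ran TOP2A, TOP1, TOP2B, TOP3A, TDP2, TOP1MT, ZNF451, TDP1, TOP3B and SPRTN. The order of 7 of the 9 neighbouring pairs was the same in all 3 libraries. TOP1MT was 1.35 and 1.57 times ZNF451 in replicates 1 and 2 and 0.984 times in replicate 3. TDP1 was 1.21 and 1.06 times TOP3B in replicates 1 and 2 and 0.952 times in replicate 3. The order of these pairs thus changed between libraries (exact sign-flip test, two-sided, p = 0.50 for each). ZNF451 stood above TDP1 in all 3 libraries, at 1.18, 1.17 and 1.53 times, with a mean log2 ratio of 0.36 and an SD of 0.22. With 3 libraries the two-sided exact sign-flip test cannot give a p below 0.25, and it gave 0.25 for the other 7 neighbouring pairs (0.321 after adjustment over 9) and for all 10 pairs fixed by their roles (0.25 after adjustment over 10), so that it separates no pair. The order also rests on the exon length: in counts without a length correction the mean log2 ratios of TOP1/TOP2B (-0.10), TDP2/TOP1MT (-0.24) and TOP1MT/ZNF451 (-0.996) turned, and that of TDP2/TOP1MT (-0.34) also turned with the longest coding transcript.

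Targets and their removal enzymes differed widely in level. TOP2A exceeded TDP2 by 11.7, 8.35 and 10.2 times per kb of exon, and TOP2B exceeded it by 3.58, 2.58 and 3.18 times. Both ratios were lowest in replicate 2. TOP1 exceeded TDP1 by 13.4, 12.2 and 15.2 times and SPRTN by 23.5, 22.0 and 18.3 times. With the longest coding transcript in place of merged exons, the mean log2 ratio went from 3.76 to 3.01 for TOP1/TDP1 and from 4.40 to 3.67 for TOP1/SPRTN. TOP2A exceeded TOP1 by 2.24, 1.97 and 2.23 times.

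**Figure D2:**
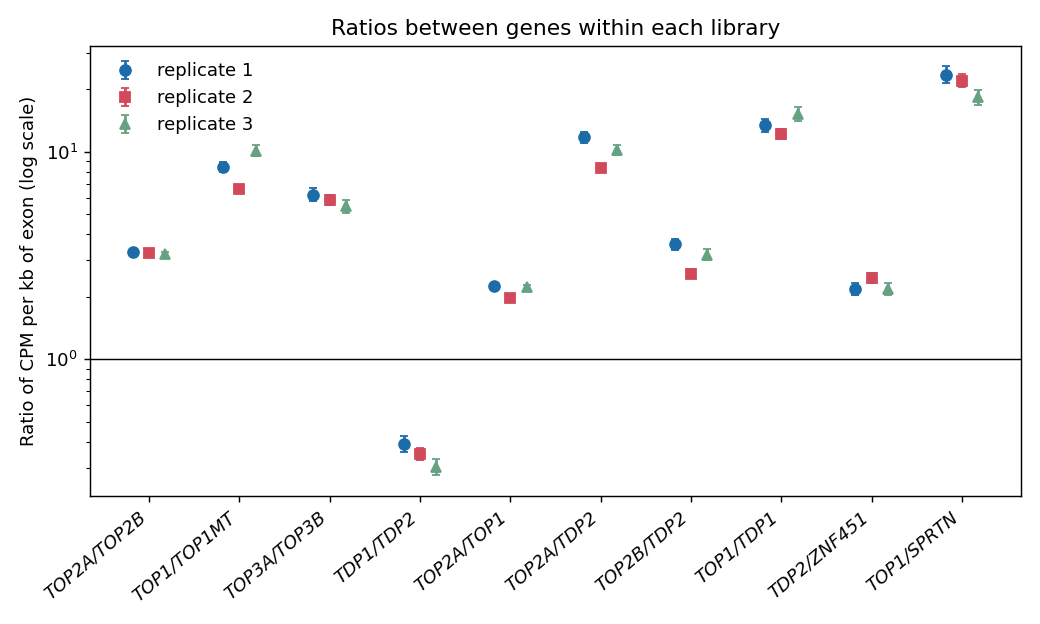
Ratio of CPM per kb of exon (log axis) for the 10 pairs fixed by role, in replicates 1, 2 and 3, with exact 95% binomial intervals of the count ratio that cover counting error only. TOP2A/TOP2B lay between 3.21 and 3.28 in all libraries, whereas TOP1/TOP1MT ran from 6.61 to 10.1, and TDP1/TDP2 was the 1 pair below 1.

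The spread between libraries was larger than counting error for 8 of the 10 genes (chi-square test of homogeneity, adjusted over 14612 detected genes). Of all detected genes 68.7% passed this test, so that passing it is common. TOP3A (adjusted p = 0.482) and TOP3B (adjusted p = 0.104) did not pass. The test was most extreme for TOP2A, with a chi-square of 2136, where the CPM varied by 17.1% (coefficient of variation) and counting alone gives 0.593%. TOP2B varied by 16.9% against 1.10% from counting (chi-square 604) and TOP1 by 10.6% against 1.14% (chi-square 217). SPRTN had the largest coefficient of variation, 19.3% against 4.16% from counting (chi-square 46.8). The median SD of log2 CPM of the 10 genes was 0.161, against 0.169 for all detected genes, and TOP2A (0.261), TOP2B (0.258) and SPRTN (0.271) were higher than 71.4%, 70.9% and 72.8% of the detected genes.

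Leaving out a single library removed the call of several genes. Without replicate 2, TOP1 (adjusted p = 0.914), TOP2A (0.367) and TOP2B (0.646) no longer passed the homogeneity test, and 5 of the 10 genes did. Without replicate 3, TOP1MT (0.147), TDP2 (0.629), SPRTN (0.0624) and TDP1 (0.0588) no longer passed, and 4 did. Without replicate 1, TDP1 (0.479) no longer passed, and 7 did. ZNF451 passed in each case. Over all genes, 10044 passed with 3 libraries, 5708 without replicate 2, 7686 without replicate 3 and 7888 without replicate 1. Calls were thus lost over all genes too, most of them without replicate 2, which is also the deepest library.

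**Figure D3:**
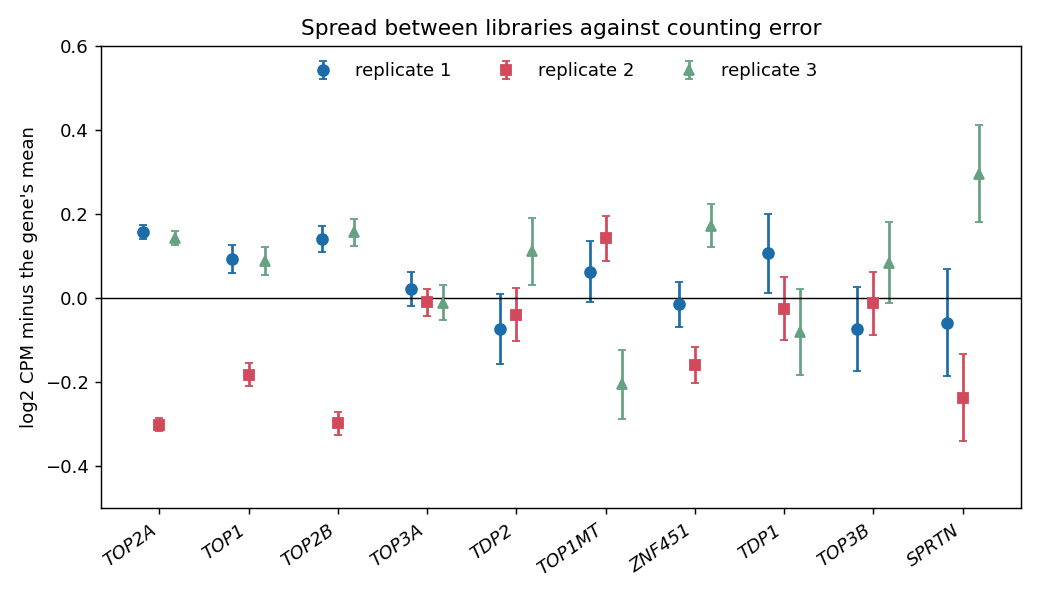
log2 CPM of each gene in replicates 1, 2 and 3 minus the mean of the gene over the libraries, with bars of 95% counting error. Replicate 2 lies below the other libraries for TOP2A, TOP1, TOP2B, ZNF451 and SPRTN, replicate 3 lies apart for SPRTN and TOP1MT, and TOP3A stays within its bars.

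Replicate 2 was the lowest library for 5 of the 10 genes, and the share of all genes for which it was lowest was not computed. Its median log2 difference from the other libraries was -0.15 for the 10 genes and 0.002 for all detected genes. Against the mean of replicates 1 and 3 on the log2 scale it stood at 0.731 times for TOP2A, 0.734 times for TOP2B, 0.782 times for SPRTN, 0.828 times for TOP1 and 0.849 times for ZNF451. TOP1MT stood at 1.16 times, and TOP3A, TOP3B, TDP1 and TDP2 at 0.960 to 0.989 times. The base composition of transcripts moved with this library over all genes. In the 3385 tested genes of lowest GC content (41.8% or less) the median log2 difference of replicate 2 from the other libraries was -0.16, and in the 3385 of highest GC content it was 0.09. Over 13539 genes, which are not independent replicates, Pearson's r between GC content and this difference was 0.317 and Spearman's rho 0.341. Exon length had little relation to it (r = -0.059, rho = -0.044).

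TOP2A (GC content 39.1%), TOP2B (39.7%) and ZNF451 (37.7%) fall among those genes of lowest GC content and were lower in replicate 2, as was TOP1 (42.2%), just outside them, and TOP1MT (58.1%) was higher. TDP2 (40.1%, log2 difference -0.059) also falls among the genes of lowest GC content and was slightly lower, near the median of -0.086 at similar GC content. Neither did TOP3A (55.2%, log2 difference -0.015) and TOP3B (59.6%, -0.018), which were not higher in replicate 2. When the trend on GC content was taken into the expected counts, an alternative chosen after seeing the data, the log2 difference of replicate 2 went from -0.45 to -0.29 for TOP2A, from -0.45 to -0.30 for TOP2B, from -0.27 to -0.21 for TOP1 and from -0.24 to -0.02 for ZNF451. For SPRTN it was -0.35 before and -0.39 after, for TOP3A -0.015 and -0.09, and for TOP3B -0.018 and -0.10. The chi-square fell from 2136 to 898 for TOP2A and from 604 to 283 for TOP2B. All 10 genes then passed the homogeneity test, TOP3A (adjusted p = 2.7e-04) and TOP3B (0.00197) included. Of the 13539 genes of known GC content 9363 passed with this trend, so that passing stayed common. The part of library preparation or of the cells in this difference was not tested.

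**Figure D4:**
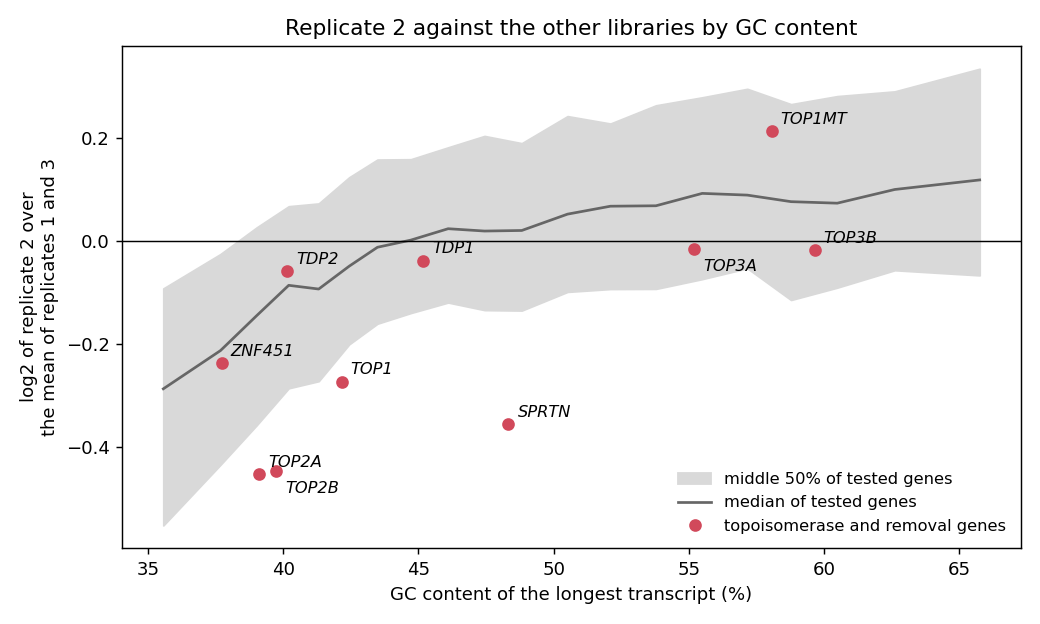
log2 level in replicate 2 minus the mean of replicates 1 and 3, against the GC content (%) of each gene's longest transcript. The grey line and band give the median and the middle 50% of tested genes in 20 bins, and TOP2A, TOP2B, TOP1 and SPRTN lie below the band.

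Genes that act with topoisomerases or after their trapping were set beside the 10 genes in 7 lists of 53 genes in all. Of these, 49 were detected, 37 lay above the median gene (45.3% of all tested genes did), 9 below and 3 were not distinguished, in the same limma fit. Their median log2 distance was 0.92, against 0 for all genes by construction.

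Partners of type IA enzymes were mixed. BLM, the helicase of the TOP3A complex, stood at 11.9 ± 1.52 CPM per kb (SD, n = 3) and was the highest, and TDRD3, the scaffold that binds TOP3B, at 2.92 ± 0.256 was the lowest of 5. The list had 3 genes above the median gene and 2 below it. All 7 genes of mitochondrial DNA maintenance lay above it, from the DNA polymerase gene POLG (11.1 ± 0.610 CPM per kb) to the mitochondrial RNA polymerase gene POLRMT (37.7 ± 2.55). TOP1MT, at 8.99 ± 1.10 CPM per kb of merged exon, was lower than each of their means. In CPM without a length correction, however, its mean of 57.9 was above the 41.9 of POLG2, the accessory subunit gene of the DNA polymerase. With the longest coding transcript as the length, the log2 distance of TOP1MT from the median gene was 1.84 in place of 0.69. Of the meiotic topoisomerase VI-like pair, SPO11, which makes the breaks of meiosis, had no count in any library, which allows up to 0.125 CPM (3 counts in the shallowest library), and C11orf80 stood at 3.57 ± 0.343 CPM per kb, below the median gene.

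SUMO, ubiquitin and segregase genes, which mark and extract trapped enzymes, lay above the median gene in 11 of 13 cases. The segregase gene VCP was highest at 73.0 ± 2.67 CPM per kb (SD, n = 3), and TEX264, which recruits it to trapped TOP1, was lowest at 3.89 ± 0.148 and lay below the median gene. Of 4 other protease genes only DDI2 (18.1 ± 1.69 CPM per kb) lay above, FAM111A (1.77 ± 0.0186) lay below, DDI1 had no count and GCNA had 9, 34 and 17 counts. SPRTN, at 3.54 ± 0.681 CPM per kb, lay between DDI2 and FAM111A.

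Among 11 nuclease genes, 5 lay above the median gene, 4 below and 2 were not distinguished. The flap endonuclease gene FEN1 was highest at 48.9 ± 1.10 CPM per kb (SD, n = 3). RAD50, a subunit of the MRE11 complex, was lowest at 0.560 ± 0.135, but 79.7% of its exon bases lie also in exons of AC116366.3, annotated on that strand, which leaves its count uncertain. Of 11 genes of end processing and ligation, 10 lay above the median gene. The end joining kinase gene PRKDC was highest at 144 ± 4.99 CPM per kb and the ligase gene LIG4 was lowest at 7.05 ± 1.03. NHEJ1, an end joining factor gene, had 7, 12 and 6 counts and was not detected, and 65.4% of its exon bases lie also in same-strand exons of AC068946.1, which leaves its count uncertain as well.

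**Figure D5:**
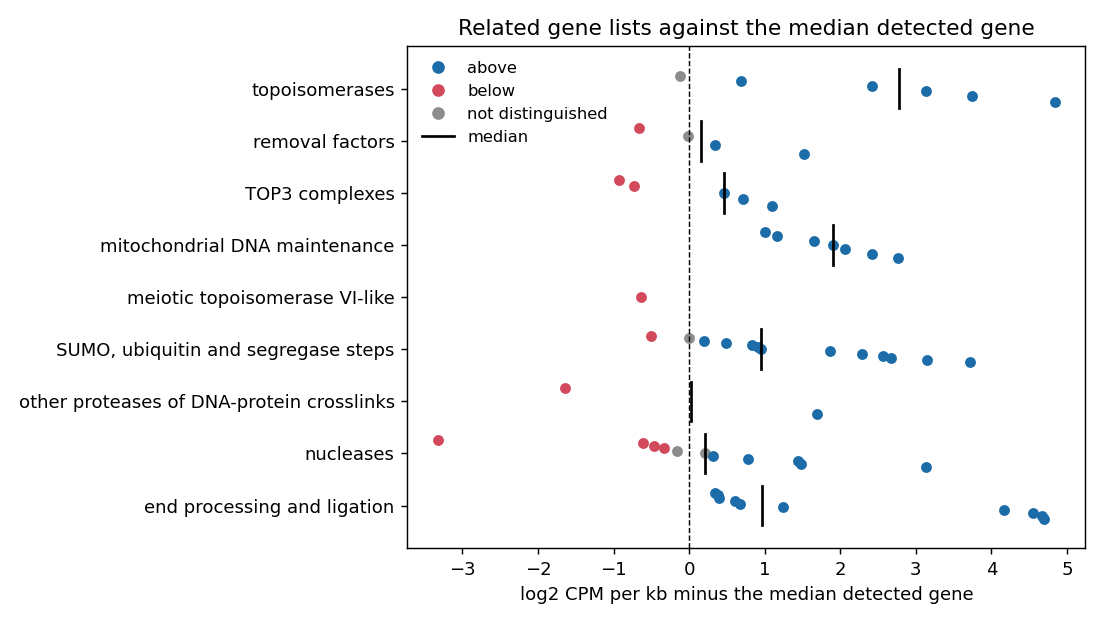
log2 CPM per kb minus the median detected gene (0, dashed line) for each detected topoisomerase, removal factor and related gene, 1 dot a gene, with the median of each list as a bar; blue dots lay above, red dots below and grey dots were not distinguished from the median gene in limma's test. All 7 mitochondrial genes and all 10 detected end joining and ligation genes lie to the right, and RAD50 lies farthest to the left.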

How the data were processed

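Total RNA of H82R cells was extracted with TRIzol and sequenced on Illumina libraries, per the labels' protocols. The authors deposited raw read counts per gene symbol, 1 column for each library, matched here by title. Per the submitters' processing notes, STAR 2.6.1b and the build hg38 were used, in unstated roles. How reads were counted, with which annotation, strand setting and filters, is not given in the sources used here. From 27587 names, 13 turned into dates were left out (0.0665% to 0.0736% of counts), which leaves 27574 genes and 25013265, 42610181 and 23868201 counts in replicates 1, 2 and 3.

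CPM used TMM effective library sizes (edgeR 4.0.16). Levels per kb used the merged exons of GENCODE release 29 (GRCh38), known for 92.7% of 14612 detected genes. Names matched directly (19590) or through an older symbol in RefSeq's table (497), and UFD1 and MRE11 appear in the table as UFD1L and MRE11A. log2 values had a prior count of 2. limma-trend (limma 3.58.1, R 4.3.3) tested the log2 distance from the median gene, two-sided, with the mean log2 CPM as the trend covariate and Benjamini-Hochberg adjustment over all genes tested at 0.05. The chi-square test compared counts with effective library sizes. With 1 group, no contrast for edgeR's or DESeq2's (1.42.0) tests could be made. The tests were tested on simulated data. Named are all 10 genes, and the highest and lowest detected and all undetected genes of each list. Some genes that overlap or copy a described gene are named too. The rule also names the 3 genes most like TOP2A, of which 1 is not reported here. The genes, lists and tests were chosen with earlier results of these data known. Alternatives are given in the closing section.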

Additional observations from a re-analysis of the deposited data

How the results depend on the processing

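With 3 libraries of 1 group, their number limits the precision. For TOP3A and TOP3B the homogeneity test did not distinguish the spread from counting error, but it did with the GC trend. The count of 7 genes above the median gene was also found with size factors of DESeq2, with unscaled totals, a prior count of 0.5, protein-coding genes as reference, limma-voom, the longest coding transcript and without any 1 library; 9 did on CPM without a length correction and with any gene of at least 1 count, and 6 with at least 1 CPM in every library. The number below was 1, but 0 on CPM, 3 with at least 1 CPM and 0 with any counted gene. Of the related genes, 9 lay below, but 5 on CPM and 4 with any counted gene. These filters move the reference gene itself. TOP3B (0.44 and 0.81) and TDP1 (0.44 and 0.90) turned positive on CPM and with any counted gene, as did SPRTN (0.26) with any counted gene. Values near 0 that stayed uncalled were also positive for TOP3B (0.012) and TDP1 (0.18) with the longest coding transcript and for TDP1 without replicate 3 (0.080).

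The homogeneity test called 8 of the 10 genes, 4 to 7 when 1 library was left out and 10 with the GC trend. It called 7 with unscaled totals or at a threshold of 0.01 (TDP1 lost in both). Of all detected genes it called 10044, and 5708 to 7888 when 1 library was left out. With the GC trend it called 9363 of the 13539 genes of known GC content.

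Ratios, as mean log2 per kb, changed with the length taken, by construction. In counts without a length correction, TOP2A/TOP2B was 1.79, TOP1/TOP1MT 2.26, TDP1/TDP2 -0.52, TOP2A/TOP1 1.88, TOP2A/TDP2 4.39, TOP2B/TDP2 2.598, TOP1/TDP1 3.02, TOP1/SPRTN 3.74, and TDP2/ZNF451 (-1.24), TOP1/TOP2B (-0.10), TDP2/TOP1MT (-0.24) and TOP1MT/ZNF451 (-0.996) reversed. With the longest coding transcript, TOP1/TOP1MT was 1.35, TDP1/TDP2 -1.33, TOP2A/TOP1 1.26, TOP2A/TDP2 2.94, TOP2B/TDP2 1.25, TOP1/TDP1 3.01, TDP2/ZNF451 0.93, TOP1/SPRTN 3.67, and TDP2/TOP1MT (-0.34) reversed. No ratio fixed by role or between neighbours changed sign when 1 library was left out. No paired analysis was possible because the labels form a single group.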
